A study of Mus musculus with 4 samples.

Results

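The spots with the highest share of immunoglobulin transcripts, called Ig-high spots here, were 415 of the 8246 liver spots with at least 500 UMIs (unique molecular identifiers, each standing for 1 captured RNA molecule). They were selected on 4 genes: Igkc (the kappa light chain constant region), Igha (the heavy chain of IgA), Ighm (the heavy chain of IgM) and Jchain (the chain that joins IgA dimers and IgM pentamers). In each section the UMIs of these 4 markers were divided by all UMIs of the spot, and the top 5% of spots by this share were chosen. That gave 124 of 2467 spots in MASH-1, 94 of 1862 in MASH-2, 102 of 2036 in MAFL-1 and 95 of 1881 in MAFL-2. They were set against the 5127 spots at or below the median share of their own section, called Ig-low spots.

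The data are spatial transcriptomes of fresh-frozen mouse liver on 10x Visium slides, where each spot captures RNA from several neighbouring cells. The MASH group holds 2 sections after 16 weeks on a diet labelled WD, and the MAFL group holds 2 sections after 8 weeks on it, so diet time and model label cannot be told apart. No untreated liver was compared, and strain, sex and age are not given in the sources used here. Whether 1 animal or several gave the sections is not stated, so p-values measure only the spread between these sections, which may be technical.

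Plasma cells are the antibody-secreting end stage of B cells. They carry very large amounts of transcripts for 1 heavy chain isotype and 1 light chain, together with a large secretory apparatus. In the liver they and other lymphocytes are usually found in portal tracts and among the sinusoids, and IgA is carried into bile by the receptor Pigr, which lies on hepatocytes in rodents and on bile duct cells.

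The sections held between 32249289 and 63808230 UMIs, with medians of 15430.5 to 25291 UMIs per spot. Replicate sections differed far beyond counting error, with a chi-square per degree of freedom of 116 in MASH and 67.7 in MAFL. Hepatocyte transcripts such as Alb were abundant in every section, at 48049 to 56457 CPM (UMIs of a gene per 1000000 UMIs). Prss2, Cela3b and Cpa1 of the pancreas had 5 UMIs or fewer in all. The 4 sections shared 992 spot barcodes, as slides of 1 design do, and none of these was Ig-high in all 4.

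The selecting values show how thin the class is. The 4 markers together gave 3737 UMIs in MASH-1, 9531 in MASH-2, 725 in MAFL-1 and 1050 in MAFL-2, which is 58.6, 214, 22.5 and 27.5 CPM of all kept spots. At least 1 marker UMI was present in 46.9% and 80.0% of the MASH spots and in 18.9% and 34.3% of the MAFL spots. An Ig-high spot held a median of 5 marker UMIs in MASH-1 and 17.5 in MASH-2, against 1 in MAFL-1 and 2 in MAFL-2. Ig-high thus meant many transcripts in MASH-2 and often a single one in MAFL-1.

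Of the Ig-high spots, 31 in MASH-1 and 1 in MASH-2 held only 1 or 2 marker UMIs, against 88 in MAFL-1 and 53 in MAFL-2. At least 10 marker UMIs were held by 28 and 70 Ig-high spots in the MASH sections and by 4 and 9 in the MAFL sections. The lowest share inside the class was 134.47 CPM of marker UMIs in MASH-1, 514.0 in MASH-2, 85.9 in MAFL-1 and 104.41 in MAFL-2. The highest share just outside it was 134.43, 508.5, 85.8 and 103.92 CPM in the same order of sections. The cut-off therefore ran through near-equal spots, and it lay higher in MASH-2 than in the other sections.

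The Ig-low class was nearly free of these transcripts. The median share was 0 in every section but MASH-2, so the class held all spots without a marker UMI, 1309 in MASH-1, 1651 in MAFL-1 and 1236 in MAFL-2. In MASH-2 the median was 78.2 CPM, and 558 of its 931 Ig-low spots held at least 1 marker UMI. There the Ig-low class still had 33.5 CPM of the markers, more than the whole MAFL sections had.

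Marker transcripts were concentrated in few spots. Ig-high spots held 61.0% of the marker UMIs of MASH-1 and 59.2% of those of MASH-2, against 60.4% in MAFL-1 and 41.3% in MAFL-2. The 10 spots with the most marker UMIs held 42.0% and 35.1% in the MASH sections, against 42.2% and 20.4% in the MAFL sections. One spot alone gave 27.4% of all marker UMIs of MAFL-1. The plot of marker UMIs by rank shows this steep fall and the long run of spots with 1 or 2 UMIs in the MAFL sections.

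**Figure D1:**
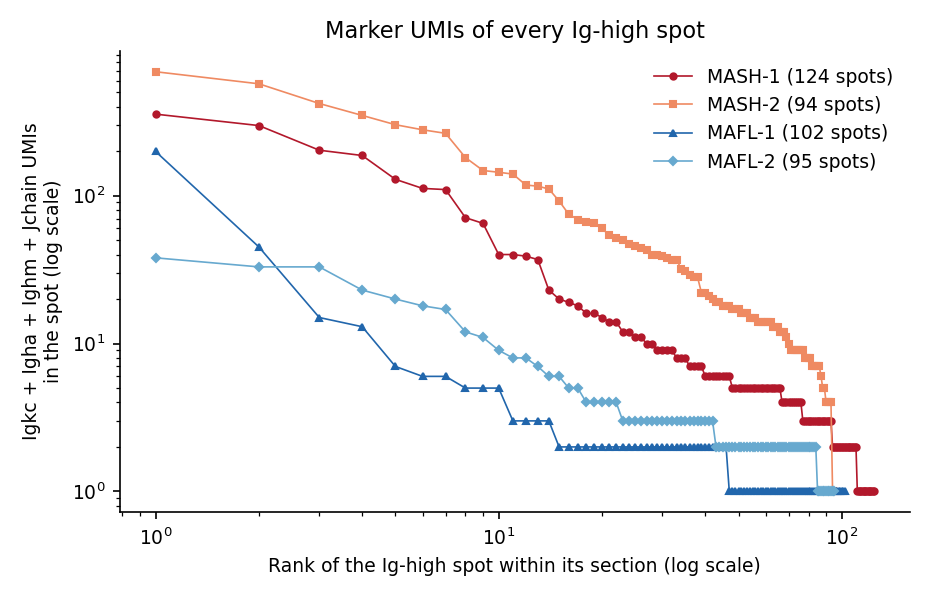
Marker UMIs (Igkc, Igha, Ighm and Jchain summed) of each Ig-high spot on a log scale, against its rank within the section, also on a log scale. MASH-2 lies highest at every rank but its last, with a top spot of 689 UMIs, and MAFL-1 drops to 1 or 2 UMIs for 88 of its 102 spots.

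Igkc was the most abundant marker in Ig-high spots of every section, and all 4 markers were selected on, so the following levels are a description. Igkc reached 466 CPM in the Ig-high spots of MASH-1 and 1992 CPM in those of MASH-2, against 163 CPM in MAFL-1 and 149 CPM in MAFL-2. Igha reached 250 and 494 CPM in the Ig-high spots of the MASH sections, against 130 and 56.8 CPM in those of the MAFL sections. Jchain reached 81.1 and 206 CPM in MASH, against 38.7 and 27.5 CPM in MAFL. Ighm was the lowest of the heavy chains in the rule, at 30.9 and 181 CPM in MASH, against 21.7 and 32.4 CPM in MAFL.

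The gamma heavy chains of IgG were not part of the rule, and like all immunoglobulin genes they were left untested between the classes. Ighg2b reached 77.5 and 537 CPM in Ig-high spots of MASH-1 and MASH-2, against 35.4 and 23.8 CPM in those of MAFL-1 and MAFL-2. Ighg2c reached 113 and 447 CPM in MASH, against 16.1 and 59.3 CPM in MAFL. Gamma transcripts were not confined to the chosen spots: in MASH-2, 221 of the 931 Ig-low spots held Ighg2b UMIs, 270 in all. Because these gamma genes resemble each other, reads may be split between them.

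The leading spots differed in their heavy chain. The spot with the highest share in MASH-2 held 280 Igkc and 373 Ighg2b UMIs with 0 Igha UMIs, out of 10092 UMIs. The next MASH-2 spot held 394 Igkc and 284 Ighg3 UMIs with 0 Igha UMIs, and the next after it held 375 Igkc, 125 Igha and 140 Ighm UMIs. The leading spot of MASH-1 was rich in IgA transcripts, with 180 Igkc, 151 Igha and 24 Jchain UMIs. In MAFL-1 the leading spot held 65 Igkc, 111 Igha and 23 Jchain UMIs, and in MAFL-2 it held 28 Igkc and 33 Ighg2c UMIs. Neighbouring spots in rank thus differed in isotype within 1 section.

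Counting only Ig-high spots with at least 3 heavy-chain UMIs, 60 spots in MASH-1, 82 in MASH-2, 9 in MAFL-1 and 24 in MAFL-2 could be given a leading isotype, one with over 50% of the heavy-chain UMIs. Igha led in 29 and 25 of these spots in MASH-1 and MASH-2, against 6 and 7 in MAFL-1 and MAFL-2. The gamma chains together led in 18 and 38 spots in the MASH sections, against 3 and 12 in the MAFL sections. Ighm led in 8 and 17 spots in MASH, against 0 and 3 in MAFL. Ighd led in 1 spot of MAFL-2, and no isotype led in 5, 2, 0 and 1 spots of MASH-1, MASH-2, MAFL-1 and MAFL-2. IgA and IgG transcripts thus each led in part of the Ig-high spots of all 4 sections.

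Summed over Ig-high spots, Igha made up 52.5% of heavy-chain UMIs in MASH-1 (95% Wilson interval 49.8 to 55.2%) and 26.6% in MASH-2 (25.2 to 28.1%). In MAFL it made up 62.9% in MAFL-1 (56.8 to 68.6%) and 32.6% in MAFL-2 (27.5 to 38.3%). The gamma chains made up 40.8% and 63.5% in the MASH sections, against 25.8% and 47.7% in the MAFL sections. The leading MAFL-1 spot held 111 of the 256 heavy-chain UMIs of that section's Ig-high spots, all of them Igha. With the leading spot of each section left out, an alternative chosen after seeing the data, Igha made up 46.4% and 29.9% in the MASH sections, against 34.5% and 36.9% in the MAFL sections. The gamma chains then made up 46.2% and 59.1% in MASH, against 45.5% and 40.9% in MAFL. The order of the sections thus changed without these single spots: for Igha the groups overlapped with and without them, and for the gamma chains only with them. These intervals cover counting error only. Igha and Ighm were in the rule and the gamma chains were not, so the selection bears on these shares. Over all spots Igha made up 48.3% and 25.5% in MASH, against 52.1% and 27.1% in MAFL. The gamma chains made up 38.8% and 62.2% of all spots' heavy-chain UMIs in MASH, against 31.1% and 48.8% in MAFL.

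The share of Ighm was 6.49% (5.28 to 7.95%) and 9.76% (8.84 to 10.8%) in the MASH sections. In the MAFL sections it was 10.5% (7.35 to 14.9%) and 18.6% (14.5 to 23.5%). The interval of MAFL-1, which rested on 27 Ighm UMIs, held the MASH-2 value. Ighd, the heavy chain of naive B cells, stayed at 1.05% or less in every section. Lambda light chains made up 8.23% and 1.16% of light-chain constant UMIs in Ig-high spots of MASH, against 2.42% and 12.9% in those of MAFL. Igkc was in the rule and the lambda genes were not. Over all spots the lambda share was higher, at 16.8% and 2.77% in MASH, against 7.95% and 15.6% in MAFL. With 2 sections a group, none of these shares was tested between the groups. Variable-region genes, whose reads would tell clones apart, were almost unseen, with 5, 18, 0 and 0 UMIs in whole MASH-1, MASH-2, MAFL-1 and MAFL-2 sections.

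**Figure D2:**
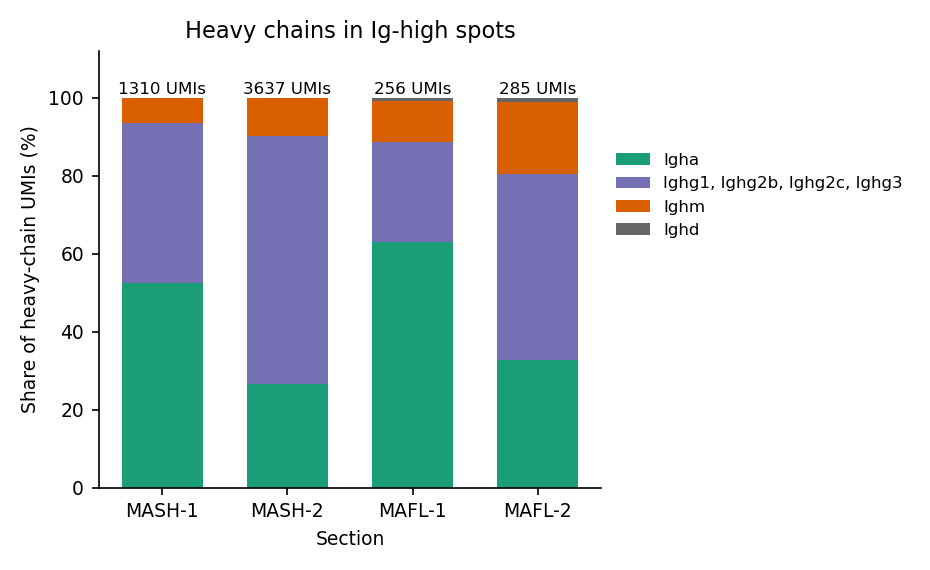
Share of heavy-chain UMIs (percent) by isotype in the Ig-high spots of each section, with the number of heavy-chain UMIs above each bar and no error bars. Igha makes up 52.5 and 26.6% in MASH-1 and MASH-2 and 62.9 and 32.6% in MAFL-1 and MAFL-2, and 111 of the 256 heavy-chain UMIs of MAFL-1 come from 1 spot.

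Across whole sections, 10 of 11 tested immunoglobulin constant genes, all but Ighd, had both MASH values above both MAFL values, as had 26.9% of all 13593 tested genes. None of the 11 passed edgeR's quasi-likelihood test. Selection within a section does not use the level of that section, so this comparison was open to a test. Of all tested genes, 62 passed a Benjamini-Hochberg adjusted p of 0.05 (0.456%), and no immunoglobulin gene was among them. Leaving out 1 section at a time gave 20 to 535 calls.

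Igkc was at 31.1 and 137 CPM (scaled with TMM factors) in whole MASH-1 and MASH-2 sections, against 10.6 and 16.4 CPM in MAFL-1 and MAFL-2. Its log2 fold change was 2.63 ± 0.87 (SE), with an adjusted p of 0.254. Igha was at 18.6 and 33.0 CPM in MASH, against 7.72 and 5.49 CPM in MAFL. Its log2 fold change was 1.97 ± 0.33, with an adjusted p of 0.0847, the smallest of these genes, though not below the threshold. Igha passed in 4 of 12 alternative settings and Igkc in 1 of 12.

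Jchain was at 5.02 and 12.8 CPM in MASH, against 2.36 and 3.02 CPM in MAFL, with a log2 fold change of 1.72 ± 0.49 and an adjusted p of 0.184. Ighm was at 4.32 and 15.2 CPM in MASH, against 2.17 and 4.16 CPM in MAFL, with an adjusted p of 0.343. For Ighm the lower MASH section was only just above the higher MAFL section. Ighg2b was at 5.41 and 37.8 CPM in MASH, against 2.96 and 3.22 CPM in MAFL, with an adjusted p of 0.303. Ighg2c was at 8.63 and 31.9 CPM in MASH, against 1.54 and 6.65 CPM in MAFL, with an adjusted p of 0.346. MASH-2 held the highest value of each of these 6 genes.

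Ighg3 had 366 UMIs in the MASH sections, 20 in MASH-1 and 346 in MASH-2, and 0 in the MAFL sections. The mean of the 2 MASH sections was at least 47.0-fold above a floor of 3 counts per MAFL section. That mean rests mostly on MASH-2, so it is no bound for MASH-1. Of the 366 UMIs, 284 came from the single MASH-2 spot described above, and the edgeR adjusted p was 0.358. The lambda genes were low, with Iglc1 at 4.99 and 2.10 CPM in MASH, against 0.0945 and 2.05 CPM in MAFL. Ighd was at 0.615 and 0.561 CPM in MASH, against 0.315 and 0.721 CPM in MAFL, and its groups overlapped. In a spot, more antibody-producing cells and more transcript per cell cannot be told apart.

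**Figure D3:**
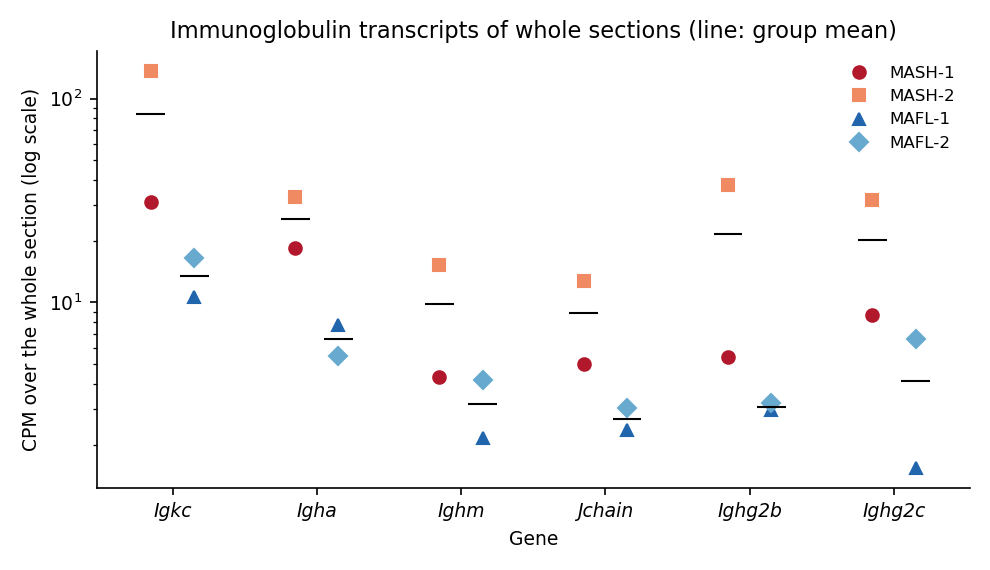
CPM over whole sections (log scale, TMM-scaled) of 6 immunoglobulin genes, 1 point per section, MASH left of MAFL for each gene, with a line at each group's mean. Both MASH points lie above both MAFL points for all 6 genes, and MASH-2 is the highest throughout.

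Deeper spots show more transcripts, so shares of spots were also taken after thinning each spot to 5000 UMIs, which left out 16 to 43 shallower spots per section. Igkc was then present in 8.33% of MASH-1 and 31.0% of MASH-2 spots, against 3.55% in MAFL-1 and 6.72% in MAFL-2. Before thinning, these shares were 27.7% and 69.0% in MASH, against 9.38% and 21.8% in MAFL. Igha was present after thinning in 5.40% and 8.40% of the MASH spots, against 2.25% and 1.78% of the MAFL spots. The T cell gene Cd3e, for comparison, was at 0.206% and 0.704% in MASH, against 0.600% and 0.753% in MAFL. Equal depth therefore left both MASH sections above both MAFL sections for Igkc and Igha. The Wilson intervals of Igkc still overlapped between MASH-1 (7.30 to 9.50%) and MAFL-2 (5.67 to 7.95%). For Ighg2c MASH-1 fell below MAFL-2, at 2.19% against 2.42%. Ighm and Jchain kept the order narrowly, at 1.65% and 1.53% in MASH-1, against 1.45% and 1.34% in MAFL-2. Ighg2b kept it too, at 1.57% in MASH-1 against 1.05% in MAFL-1. The intervals of these pairs overlapped.

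Apart from the immunoglobulin genes themselves, transcripts that define plasma cells were too rare to mark these spots or were shared with hepatocytes. Mzb1, a plasma cell chaperone, had 3 UMIs in all 4 sections together, and Tnfrsf17, the survival receptor BCMA, had 6. Prdm1 and Irf4, transcription factors of plasma cell differentiation, had 72 and 61 UMIs, of which 5 and 7 were in Ig-high spots. Pou2af1, also of the plasma cell list, had 8 of its 33 UMIs there, Mzb1 2 of 3 and Tnfrsf17 2 of 6. For scale, the hepatocyte gene Alb had 382493 of its 9300675 UMIs in Ig-high spots. Xbp1, the secretory regulator, had 24688 UMIs and Sdc1 (CD138) 39192 UMIs, and in Ig-low spots, nearly free of marker UMIs, they stood at 151 and 235 CPM on average. Both are also made by hepatocytes.

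The plasma cell list held 26 genes, of which 17 had enough counts to be tested between Ig-high and Ig-low spots and 0 passed in either direction. Their median log2 fold change was 0.01, beside -0.01 over all 12070 tested genes. Single members ran from -0.16 to 1.44. The highest was Eaf2 (edgeR adjusted p = 0.166), which passed in 1 of 18 alternative settings. Spots among the top 5% for this list made up 8.06% and 6.38% of the Ig-high spots in MASH, against 8.82% and 9.47% in MAFL. Of all spots, 5.01 to 5.05% were in that class. The 95% Wilson intervals began at 4.44% and 2.96% in MASH, and at 4.71% and 5.06% in MAFL. Derl3, an endoplasmic reticulum protein abundant in secretory cells, averaged 5.51 CPM in Ig-high and 3.31 CPM in Ig-low spots, with a log2 fold change of 0.82 and an adjusted p of 0.153. Txndc5 averaged 83.1 CPM in Ig-high and 81.2 CPM in Ig-low spots, Xbp1 139 and 151 CPM, and Sdc1 220.1 and 235 CPM. Of 25 tested genes for secretion through the endoplasmic reticulum and the unfolded protein response, 0 passed, with a median of -0.07. The spots are therefore named after their immunoglobulin transcripts and given no cell type.

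B cell genes were scarce as well. Cd79b, a signalling chain of the B cell receptor, had 6.09, 4.98, 0.784 and 5.76 CPM in the Ig-high spots of MASH-1, MASH-2, MAFL-1 and MAFL-2, against 1.81, 1.63, 0.808 and 1.73 CPM in their Ig-low spots. It was higher in 3 of 4 sections, with a log2 fold change of 1.59 ± 0.32 and an adjusted p of 0.00275. It was the 1 gene called among 8 tested B cell genes of 20 listed. Cd79a had too few counts to be tested, with 16 of its 109 UMIs in Ig-high spots and 44 in Ig-low spots. Alb, for scale, had 382493 and 5568884 UMIs in these classes. The share of Ig-high spots that were also in the top 5% for B cell genes was 16.1% and 7.45% in MASH, against 3.92% and 9.47% in MAFL, where 5.01 to 5.05% of all spots were in that top class.

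Beyond the immunoglobulin genes, Ig-high spots carried more transcripts of collagen-producing cells, macrophages and antigen presentation, and slightly less of several hepatocyte genes. Of 12070 genes tested with the section as a block, 158 were higher (1.31%) and 93 lower (0.771%) in Ig-high than in Ig-low spots. Scaling moved this split: with edgeR's RLE factors it was 145 higher and 41 lower, and with library totals alone 236 higher and 9 lower. DESeq2, which changes the test as well as the factors, called 13 higher and 55 lower. All immunoglobulin genes and Jchain had been left out of the counts and library sizes. Ig-high spots were also shallower. Their medians were 21080 and 17000.5 UMIs in the MASH sections and 10970 and 16854 in the MAFL sections. Ig-low spots had medians of 23388 and 22777 UMIs in MASH, and 15309 and 19046.5 in MAFL. The share divides by all UMIs of the spot, so the rule itself favours shallow spots where marker UMIs are few. When spots were ranked within 5 bins of total UMIs, 113 genes were higher and 28 lower, 120 of them among the 251 above. The count depended on single sections: without MASH-2 39 genes were higher and 59 lower, and without MAFL-1 61 were higher and 5 lower. The MASH sections alone gave 169 higher and 25 lower genes, and the MAFL sections alone 34 higher and 5 lower. Requiring at least 3 marker UMIs in an Ig-high spot, an alternative chosen after seeing the data, gave 169 higher and 79 lower genes. The Ig-high medians were then 25257 and 17067 UMIs in MASH and 12051 and 21444 in MAFL. They lay above those of Ig-low spots in MASH-1 and MAFL-2.

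Slpi, an inhibitor of leukocyte proteases, had the highest fold change among the named genes. It was at 8.24, 85.1, 0.784 and 0.640 CPM in the Ig-high spots of MASH-1, MASH-2, MAFL-1 and MAFL-2, against 2.11, 8.92, 0.646 and 0.575 CPM in their Ig-low spots. The log2 fold change was 2.72 ± 0.27, with an adjusted p of 1.34e-05. The MASH sections carried the difference, and both classes were near the floor in MAFL. Without MASH-2 the log2 fold change was 1.66, with an adjusted p of 0.0246.

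Ly6c2, a surface antigen of inflammatory monocytes, was at 7.53, 36.2, 3.92 and 5.12 CPM in Ig-high spots, against 2.24, 4.56, 2.06 and 2.04 CPM in Ig-low spots of MASH-1, MASH-2, MAFL-1 and MAFL-2. The log2 fold change was 2.20 ± 0.26, with an adjusted p of 5.14e-06. Ccl19, a chemokine that draws lymphocytes and dendritic cells through Ccr7, was at 14.7, 42.6, 29.8 and 5.12 CPM in Ig-high spots, against 8.94, 13.8, 10.1 and 3.67 CPM in Ig-low spots. This gave a log2 fold change of 1.27 ± 0.16, with an adjusted p of 2.07e-06, and without MASH-2 it was 1.03, with an adjusted p of 0.00254. Both genes were higher in Ig-high spots of all 4 sections, a condition for being named.

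Smooth muscle and matrix genes followed. Acta2, the actin of myofibroblasts and vessel walls, was at 2.15, 20.8, 15.7 and 1.28 CPM in Ig-high spots, against 1.55, 3.05, 5.01 and 1.11 CPM in Ig-low spots. The log2 fold change was 1.85 ± 0.30, with an adjusted p of 6.24e-04, and without MASH-2 it was 1.18, with an adjusted p of 0.0951. Col1a1, the main fibrillar collagen chain, was at 16.1, 76.5, 11.0 and 5.12 CPM in Ig-high spots, against 11.0, 30.2, 5.09 and 3.23 CPM in Ig-low spots. Its log2 fold change was 1.08 ± 0.13, with an adjusted p of 1.05e-06, and without MASH-2 it was 0.69, with an adjusted p of 0.133. MASH-2 and MAFL-1 showed the widest gaps for Acta2, and MASH-1 and MAFL-2 narrow ones.

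The other named genes that were higher had log2 fold changes of 1.04 to 1.51. They were S100a4 and S100a6 (calcium-binding proteins), Myl9 (a myosin light chain of smooth muscle), Htra3 (a secreted protease), Mmp2 (a matrix metalloproteinase), Epcam (an epithelial adhesion protein of bile ducts) and Emp1 (a membrane protein). Without MASH-2 the log2 fold change was 1.11 for S100a4 (adjusted p = 0.104), 1.02 for Myl9 (adjusted p = 0.134), 1.11 for Epcam (adjusted p = 0.127) and 0.80 for Emp1 (adjusted p = 0.465). Mmp2 was among those that passed without it, with an adjusted p of 0.0159. Each of these genes was higher in Ig-high spots of all 4 sections, a condition for being named.

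**Figure D4:**
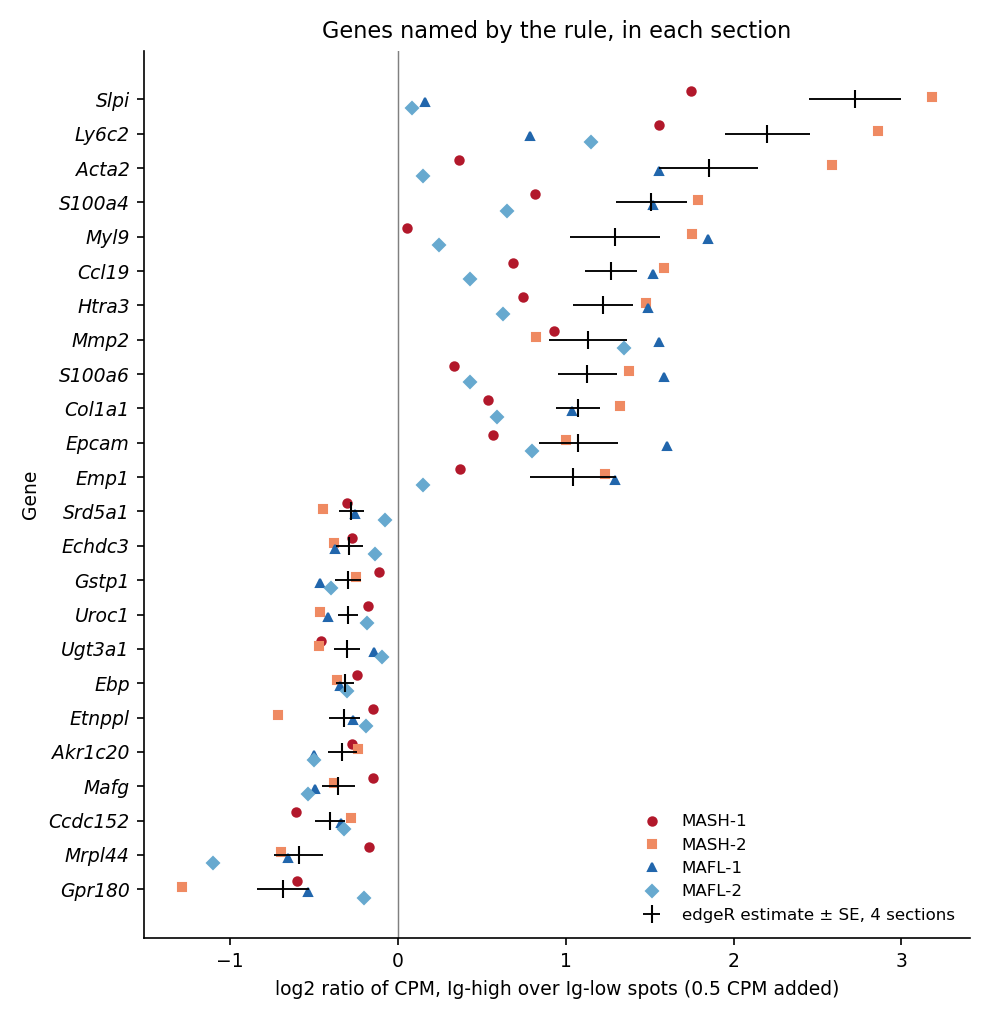
Log2 ratio of CPM, Ig-high over Ig-low spots, for the 12 highest and 12 lowest genes named by the rule, 1 point per section, with edgeR's estimate over 4 sections and its standard error in black. The MASH-2 points lie farthest right for Slpi, Ly6c2 and Acta2, while the lower genes lie left of 0 in every section, a condition for being named.

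Fibroblast genes held the most calls of any list by number, though the lists differed in size. Over all tested genes 1.31% were called higher. Of 19 tested genes of portal fibroblasts and stellate cells, the vitamin A-storing cells that turn into myofibroblasts, 11 rose and 0 fell, with a median log2 fold change of 0.80 beside -0.01 over all genes. Col1a2 averaged 39.5 CPM in Ig-high and 22.5 CPM in Ig-low spots, with a log2 fold change of 0.76 and an adjusted p of 9.78e-05. Col3a1 averaged 56.1 and 30.9 CPM in the same classes, with 0.80 and an adjusted p of 9.64e-04. Spots among the top 5% for these genes made up 12.1% and 23.4% of the Ig-high spots in MASH, against 19.6% and 12.6% in MAFL. All 4 shares were above the 5.01 to 5.05% of all spots in that class. Without MASH-2 the list had 1 call and a median of 0.50, the MASH sections alone gave 10 calls and the MAFL sections alone 3, all higher, while DESeq2 made 1.

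Lipid-associated macrophages are Trem2-positive cells that gather around dying fat-laden hepatocytes. Of 12 tested genes of theirs 7 rose and 0 fell, with a median of 0.76. Gpnmb, a glycoprotein of such macrophages, was at 26.9, 84.6, 0 and 0.640 CPM in Ig-high spots, against 12.1, 39.6, 0.283 and 0.487 CPM in Ig-low spots of MASH-1, MASH-2, MAFL-1 and MAFL-2. Its log2 fold change of 1.10 ± 0.12 (adjusted p = 1.71e-07) therefore came from the MASH sections. Lgals3 (galectin-3) was at 45.9, 119, 20.4 and 14.1 CPM in Ig-high spots, against 28.5, 62.0, 10.8 and 11.2 CPM in Ig-low spots, and passed with 0.80 and an adjusted p of 2.32e-07. Cd63 (0.76) and Mmp12 (0.83) were higher in all 4 sections too. In the top 5% for this list were 11.3% and 21.3% of the Ig-high spots in MASH, against 16.7% and 8.42% in MAFL. Without MASH-2 the list had 2 calls among 11 tested genes and a median of 0.38, the MASH sections alone gave 11 calls, and the MAFL sections alone and DESeq2 1 each.

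Among 18 tested genes of monocytes and macrophages 7 rose and 0 fell, with a median of 0.42. Besides Ly6c2 and S100a4 they included Fcer1g (0.37), the gamma chain of Fc receptors, and the lysosomal protein Cd68 (0.50), which was higher in 3 of 4 sections. Of 15 Kupffer cell genes, those of the resident macrophages of the liver, 0 passed, with a median of 0.02. The 4 of smallest p were C1qc (0.20), C1qa (0.16), C6 (-0.16) and C1qb (0.14). Clec4f, the lectin of Kupffer cells, averaged 121 CPM in Ig-high and 127 CPM in Ig-low spots. Library totals in place of TMM factors called 3 of the 15 Kupffer cell genes higher, with a median of 0.11. Without MASH-2 the first list had 2 calls and a median of 0.23, the MASH sections alone gave 7 calls, DESeq2 made 1, and the MAFL sections alone gave 0 among 17 tested genes, with a median of 0.12. The difference between these lists was not tested.

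Antigen presentation to CD4 T cells by MHC class II was represented by 9 tested genes, of which 5 rose and 0 fell, with a median of 0.51. Cd74, the invariant chain and a receptor for Mif, was at 275, 599, 120.0 and 113 CPM in Ig-high spots, against 245, 382, 81.8 and 83.7 CPM in Ig-low spots of MASH-1, MASH-2, MAFL-1 and MAFL-2. That is a log2 fold change of 0.44 ± 0.06, with an adjusted p of 5.25e-05. H2-Ab1, a class II beta chain, had a log2 fold change of 0.47 ± 0.07 and an adjusted p of 7.60e-05. Both were higher in all 4 sections and passed in all 24 alternative settings. The list had 3 calls among 8 tested genes without MASH-2, 7 in the MASH sections alone and 3 in the MAFL sections alone. Of 9 dendritic cell genes 2 rose, Cst3 (0.26) and Flt3 (2.04), and Flt3 averaged only 2.50 CPM in Ig-high spots.

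Of 15 chemokine and lymphoid genes 4 rose: Ccl19, Coro1a (0.85), Cxcl16 (0.52) and Cd52 (0.57). The 12 tested genes of T and NK cells had a median of 0.62, of which only Ccl5 passed, at 0.63 and an adjusted p of 0.00845, higher in 3 of 4 sections. Cd3d, part of the T cell receptor complex, averaged 3.0 CPM in Ig-high and 1.63 CPM in Ig-low spots and did not pass (adjusted p = 0.281). Of 3 tested neutrophil genes S100a8 passed, at 0.82 and an adjusted p of 0.0499. The other 8 listed T and NK cell genes had too few counts to be tested.

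For IgA transport and plasma cell retention, 2 of 10 tested genes rose. Itgb7, the integrin chain of gut-homing lymphocytes, averaged 6.09 CPM in Ig-high and 2.96 CPM in Ig-low spots, with a log2 fold change of 1.04 and an adjusted p of 0.0178. Vcam1, an adhesion molecule for lymphocytes, averaged 37.8 and 28.4 CPM in the same classes, with 0.40 and an adjusted p of 0.0249. Pigr averaged 796 CPM in Ig-high and 873 CPM in Ig-low spots and did not pass (adjusted p = 0.184). Without MASH-2 Itgb7 had a log2 fold change of 0.90 and an adjusted p of 0.241.

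Bile duct genes were higher in part. Of 10 tested cholangiocyte genes 3 rose, Epcam (1.08), Muc1 (1.31) and Cldn7, with a median of 0.70 over the list, and without MASH-2 none did. Spp1 (0.82) did not pass (edgeR adjusted p = 0.119) but passed in 12 of 24 alternative settings. Its log2 fold change was 0.96 in the MAFL sections alone and 0.76 without MASH-2. Krt19, the keratin of bile ducts, averaged 3.75 CPM in Ig-high and 1.89 CPM in Ig-low spots and did not pass (adjusted p = 0.119). Among 17 endothelial genes 1 rose, Ednrb (0.57). Cholangiocyte-gene-high spots made up 6.45% and 19.1% of the Ig-high spots in MASH, against 16.7% and 9.47% in MAFL. The lowest of these shares, in MASH-1, had a 95% Wilson interval of 3.31 to 12.2%.

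Hepatocyte genes moved little. Of 16 tested periportal genes 6 fell and 0 rose, with a median of -0.15. With spots ranked within bins of total UMIs none fell. Uroc1, an enzyme of histidine breakdown, averaged 124 CPM in Ig-high and 153 CPM in Ig-low spots, with a log2 fold change of -0.30 and an adjusted p of 0.00293. Pck1, the gluconeogenic enzyme, averaged 1426 and 1628 CPM, and Arg1 and Ass1 of the urea cycle also fell. Of 16 pericentral genes 2 fell, Cyp2e1 (-0.18) and Cyp27a1 (-0.20), with a list median of 0.05. With the bins of total UMIs 3 pericentral genes fell, with a median of -0.06. With at least 3 marker UMIs 2 periportal and 4 pericentral genes fell. With library totals in place of TMM factors the median of all genes moved to 0.08, and 1 periportal and no pericentral gene was then called lower. The periportal median was then -0.06.

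Other genes that fell were also small in effect. The named lowest gene, Gpr180, was at 12.5, 7.24, 11.0 and 14.1 CPM in Ig-high spots, against 19.3, 18.4, 16.1 and 16.3 CPM in Ig-low spots of MASH-1, MASH-2, MAFL-1 and MAFL-2, with a log2 fold change of -0.69 and an adjusted p of 0.0116. Ebp, a sterol isomerase of cholesterol synthesis, averaged 157 CPM in Ig-high and 196 CPM in Ig-low spots, with -0.31 and an adjusted p of 3.69e-04. The other named lower genes (Mrpl44, Ccdc152, Mafg, Akr1c20, Etnppl, Ugt3a1, Gstp1, Echdc3 and Srd5a1) had log2 fold changes between -0.59 and -0.28. Of 11 lipid droplet genes 2 fell, G0s2 (-0.26) and Plin4 (-0.55), and of 12 lipogenic genes 0 passed. Of 16 acute phase genes 2 fell, Hamp (-0.22) and Fgg (-0.18).

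A further 3 lists gave 1 call each. Of 15 interferon-inducible genes Ifi27l2a rose (0.29), of 13 proliferation genes Tubb5 rose (0.41), and of 13 genes of the mitochondrial genome mt-Co1 fell (-0.18). Mitochondrial transcripts took 3.67% and 4.33% of UMIs in Ig-high spots of MASH, against 3.89% and 4.82% in Ig-low spots of the same sections. In MAFL they took 4.03% and 4.93% in Ig-high spots, against 4.03% and 5.03% in Ig-low spots. Fabp2 was the 1 tested gene of the pancreas and gut list and did not pass.

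Red blood cell transcripts moved with the class. Haemoglobin genes took 0.490% and 0.276% of UMIs in Ig-high spots of MASH-1 and MASH-2, against 0.431% and 0.131% in their Ig-low spots. In MAFL-1 and MAFL-2 they took 0.665% and 0.411% in Ig-high spots, against 0.256% and 0.148% in Ig-low spots. All 7 erythroid genes tested had positive fold changes, with a median of 0.88, and 0 passed. DESeq2 called 4 of them higher. The part of red blood cell RNA in the results above was not tested.

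**Figure D5:**
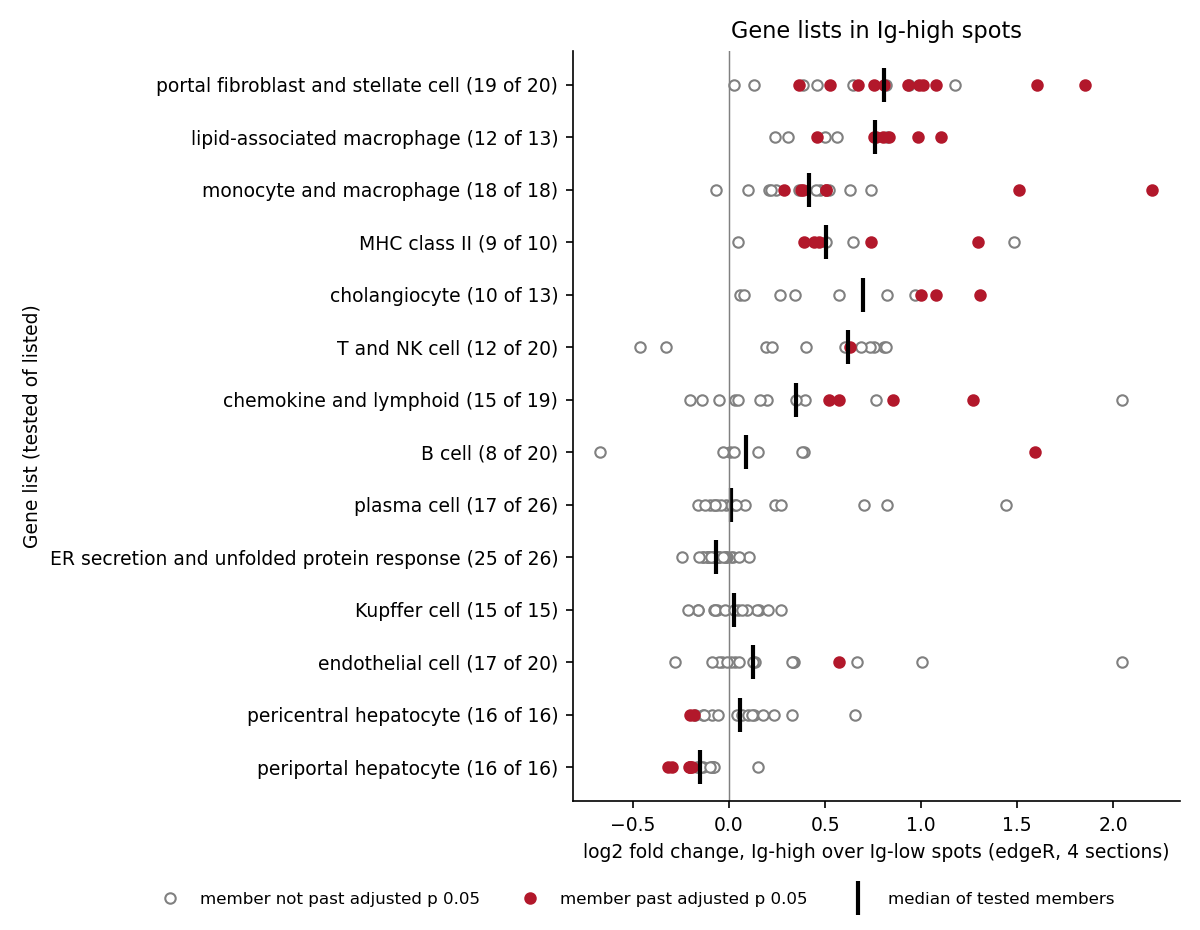
Log2 fold change, Ig-high over Ig-low spots, of each tested member of 14 gene lists, with the median as a black bar and filled points for members past an adjusted p of 0.05. Fibroblast, macrophage and MHC class II lists lie right of 0, with medians of 0.80, 0.76, 0.42 and 0.51, and the plasma cell and secretion lists lie around 0.

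The position of Ig-high spots along the lobule was read from hepatocyte genes, as the log2 ratio of 6 periportal to 6 pericentral genes, with each section cut into 3 equal classes. The periportal class held 38.7% (30.6 to 47.5%) and 36.2% (27.2 to 46.2%) of the Ig-high spots of MASH-1 and MASH-2, against 28.4% (20.6 to 37.8%) and 29.5% (21.2 to 39.3%) of those of MAFL-1 and MAFL-2. The mean over sections was 33.2 ± 5.03% (SD, n = 4). The pericentral class held 28.2% and 40.4% of the Ig-high spots in MASH, against 30.4% and 24.2% in MAFL. The middle class held 33.1% (25.4 to 41.7%) and 23.4% (16.0 to 32.9%) in MASH, against 41.2% (32.1 to 50.9%) and 46.3% (36.6 to 56.3%) in MAFL. Ig-low spots lay in the middle class in 32.5% and 31.8% of cases in MASH, against 32.8% and 33.7% in MAFL, and in the periportal class in 33.5% and 38.7%, against 33.5% and 31.1%. With the main rule no zone held most of the Ig-high spots in any section. In some alternatives the middle class did in MAFL. It held 53.7% in MAFL-1 with the top 2% of spots, and 57.1% of 14 spots there with at least 3 marker UMIs. In MAFL-2 it held 50.5% by the share without Igha. Classes ranked within zones gave 247 called genes, 196 of them among the 251 of the main rule. The part of zone in the gene differences was not tested. Hepatocyte-based zones do not resolve portal tracts themselves, and spot positions were not used here.

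An interaction of class and group asked whether the Ig-high difference itself was unequal in MASH and MAFL, and 2 of 12844 genes passed (0.0156%). Hba-a2, an alpha-globin, had log2 ratios of 0.14 and 0.88 in MASH-1 and MASH-2, against 1.16 and 1.30 in MAFL-1 and MAFL-2, with an interaction of -0.74 ± 0.12 and an adjusted p of 0.00174. Saa2, an acute phase protein of hepatocytes, had log2 ratios of 0.92 and 0.20 in MASH, against -0.16 and -0.05 in MAFL, with an interaction of 0.68 ± 0.12 and an adjusted p of 0.00174. Both have near-identical neighbouring copies, Hba-a1 and Saa1, so their reads may be split. No gene of the fibroblast, macrophage or MHC class II lists passed this test. Leaving out 1 section gave 0 to 16 calls, with 0 without MAFL-1, 14 without MASH-2 and 16 without MASH-1.

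Within Ig-high spots, several macrophage genes were higher and several genes of major urinary proteins lower in MASH than in MAFL. Of 8637 genes tested between 2 MASH and 2 MAFL sections, 20 were higher (0.232%) and 14 lower (0.162%). Without any 1 section, where a lone sample is assumed to vary like the other group, the count was 133 to 547. Of 14 tested monocyte and macrophage genes 6 rose and 0 fell, with a median log2 fold change of 1.70 beside 0.01 over all genes. Lyz2, the lysozyme of myeloid cells, was at 274 and 411 CPM in Ig-high spots of MASH-1 and MASH-2, against 64.4 and 81.7 CPM in those of MAFL-1 and MAFL-2, with a log2 fold change of 2.22 ± 0.26 and an adjusted p of 0.00231. Over whole sections Lyz2 was at 219 and 211 CPM in MASH, against 56.9 and 62.9 CPM in MAFL, so the groups were apart outside Ig-high spots as well.

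C1qc, a complement subunit made by macrophages, was at 150.3 and 202 CPM in Ig-high spots of MASH, against 54.6 and 60.6 CPM in those of MAFL, with 1.61 ± 0.24 and an adjusted p of 0.0153. Csf1r, the receptor for the macrophage growth factor, was at 70.1 and 64.0 CPM in MASH, against 27.7 and 27.0 CPM in MAFL, with 1.29 ± 0.23 and an adjusted p of 0.0361. These 2 genes were named after their values were seen. For both, the replicates of a group lay close together compared with the gap between the groups.

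Of 16 acute phase genes 1 rose, Lcn2, and 0 fell, with a median of -0.28. Lcn2, an iron-binding protein, had the highest fold change, at 76.4 and 134 CPM in Ig-high spots of MASH, against 9.79 and 11.2 CPM in those of MAFL, with 3.30 ± 0.34 and an adjusted p of 0.00105. Serpina7, which carries thyroid hormone, was at 54.8 and 55.9 CPM in MASH, against 7.34 and 7.25 CPM in MAFL, with 2.91 ± 0.30 and an adjusted p of 6.84e-04. Defb1 (2.86) and Haus8 (2.39) completed the 5 highest. Lcn2 over whole sections was at 38.2 and 113 CPM in MASH, against 9.64 and 12 CPM in MAFL, and Serpina7 at 53.8 and 38.4 CPM, against 8.50 and 6.77 CPM.

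Among lower genes, Moxd1 had 0 UMIs in Ig-high spots of MASH and 40 in those of MAFL, which made it at least 9.93-fold lower in MASH against a floor of 3 counts per section. Grip2 (-2.79), Cyp4a31 (-2.12), the complement gene C8b (-1.40) and the carboxylesterase Ces3b (-1.36) were the other named genes that fell. Over whole sections Cyp4a31 (-1.78, edgeR adjusted p = 0.00863) and C8b (-1.24, adjusted p = 0.0344) were lower in MASH as well. The Mup genes, left out of the naming rule, encode major urinary proteins and are near-identical copies whose reads may be split. Looked at after their values were seen, 5 of 14 tested Mup genes fell and 0 rose, with Mup17 at 289 and 216 CPM in MASH, against 4459 and 4619 CPM in MAFL. No gene of the plasma cell list passed, with 14 tested and a median of -0.07, and none of the 25 secretion genes did, with a median of -0.37. Of 17 fibroblast and 10 lipid-associated macrophage genes tested here 0 passed, with medians of 0.93 and 2.05, and the B cell list had 3 tested genes with 0 passed.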

How the data were processed

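The authors ran Space Ranger 1.2.2 on the mm10 genome, per the file headers and the submitters' processing notes. The deposited matrices hold counts, UMIs per gene and spot in whole numbers, for 31253 features. The spots kept had at least 500 UMIs, and 3 spots each of MASH-1 and MAFL-1 were left out. A spot holds several cells, and no doublet caller was run.

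UMIs were summed per class and section and fitted with edgeR 4.0.16 (TMM factors, filterByExpr, robust quasi-likelihood test, Benjamini-Hochberg adjustment, threshold 0.05) under R 4.3.3, with the section as a block for Ig-high over Ig-low. All 396 features starting with Igk, Igh or Igl, and Jchain, were left out of the class counts and library sizes. This prefix also takes Ighmbp2, Iglon5 and Igll1, which are not antibody genes. In the comparison of whole sections all genes were kept. Alternatives used limma 3.58.1, DESeq2 1.42.0, other class definitions, factors, filters and sections. Replicate numbers did not pair the sections: deviations of same-numbered sections correlated at -0.22 in Ig-high spots and -0.19 over whole sections.

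The members and the 25 gene lists (393 symbols, of which Ero1b was not matched) were chosen with earlier results of these data known. The text names the 12 genes with the highest and the 12 with the lowest fold change of Ig-high over Ig-low, and 5 each way in the other comparisons. To be named, a gene had to pass 0.05, average at least 5 CPM and go the same way in all sections. The rule skips predicted genes, Mup genes, cytosolic ribosomal proteins, the mitochondrial genome, globins, Xist and Y-linked genes. Up to 4 members of smallest p of each list, all of the plasma cell list and the immunoglobulin constant genes could be added, and not all of them are given. Of the whole-section comparison only immunoglobulin genes and some of the genes named for Ig-high spots are given. The fits were tested on simulated data. Intervals are 95% Wilson intervals computed with scipy 1.17.1 and cover counting error only. Values were handled with Python 3.11.15, numpy 2.4.6, pandas 2.3.3 and matplotlib 3.10.9, and thinning used the seed 20240611.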

Additional observations from a re-analysis of the deposited data

Results flagged for a closer look

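For 2 genes the Ig-high difference was not the same in the MASH and the MAFL sections by the interaction test. Hba-a2 had an interaction of -0.74 (log2, MASH minus MAFL; adjusted p = 0.00174, edgeR), with ratios above 0 in all 4 sections and larger in both MAFL sections. Saa2 had an interaction of 0.68 (adjusted p = 0.00174), with ratios above 0 in both MASH sections and below 0 in both MAFL sections. Ranking spots within bins of total UMIs left 0 calls in this test, with 675 genes at an unadjusted p under 0.05. The interactions were then -0.58 for Hba-a2 (adjusted p = 0.9997) and 0.63 for Saa2 (adjusted p = 0.106). DESeq2 also left 0, with 62 genes at an unadjusted p under 0.05, at -0.75 for Hba-a2 and 0.64 for Saa2. Over all alternatives neither interaction changed sign.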

How the results depend on the processing

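The 251 genes called between Ig-high and Ig-low spots became 95 with the top 10% of spots, 141 with spots ranked within 5 bins of total UMIs, 78 by Igha and Jchain alone, 10 by Ighm alone, 68 with DESeq2, 646 with no filter, 100 at 10 CPM or more, 415 with limma-voom, 39 in the MAFL sections alone, and 66 (without MAFL-1) to 263 without 1 section. The 2 interaction calls became 5 with the top 10% of spots or no filter, 1 with library totals or at least 3 marker UMIs, and 0 with bins of UMIs, DESeq2, limma-voom or at least 10 CPM, and ranged from 0 to 16 without 1 section. The 34 calls between MASH and MAFL in Ig-high spots became 65 with DESeq2, 283 with no filter and 18 with at least 3 marker UMIs, and ranged from 133 to 547 without 1 section. The 62 calls of whole sections became 627 with DESeq2, 1153 with no filter, 20 at 10 CPM or more and 22 with limma-voom, and ranged from 20 to 535 without 1 section. With the replicate block, though the numbers do not pair the sections, the counts were 87 in Ig-high spots and 0 over whole sections (edgeR; 1900 genes at an unadjusted p under 0.05), and with the numbers crossed, added after seeing the data, 432 and 779. The periportal share of 33.2% became 39.0% with the top 2% of spots, 38.6% with bins of UMIs, 28.0% by Ighm alone and 40.1% with at least 3 marker UMIs, and ranged from 31.4 to 34.8% without 1 section. By Ighm alone 5 genes changed sign, none of them past the threshold there: Ccl5 to -0.069, Cd68 to -0.12, S100a8 to -0.16, Cyp2e1 to 0.027 and Plin4 to 0.051. Over all settings, values of genes named for Ig-high over Ig-low kept direction and call in 2274 of 2962 cases, lost the call in 525, gained it in 89, and changed sign without a call on either side in 69. Library totals alone moved the median of all genes on the log2 scale by 0.09 for Ig-high over Ig-low, 0.10 for MASH over MAFL in Ig-high spots and over whole sections, and 0.02 for the interaction. The cause of these changes was not tested. Counting error weighs most where spots hold few marker UMIs, and 88 of 102 and 53 of 95 Ig-high spots of MAFL-1 and MAFL-2 held only 1 or 2.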
